A study of Homo sapiens with 3 samples.

Results

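Pluripotency and oncofetal regulators were examined in C33A cells, a human cervical carcinoma line, as 10 genes chosen by name: LIN28A, LIN28B, SALL4, KLF4, PROM1, IGF2BP1, IGF2BP2, IGF2BP3, HMGA1 and HMGA2. The cells grew exponentially without any treatment, and total RNA of 3 separately grown cultures was measured on 3 whole-transcript Affymetrix arrays of the Human Gene ST type. The study ranked genes by these levels to relate them to binding of the chromatin remodeller CHD8. There is 1 group and no contrast, so levels are described and no condition is compared. Levels are log2 intensities, and a gene is the mean of its probe sets that carry only its symbol in the platform annotation. Of the 10 genes, 9 have such a probe set, out of 18395 genes measured in the same way. HMGA2 has none and is described from a shared probe set. C33A cells carry no papillomavirus genome, as general background on the line. The cells are a single line, so the levels describe it and not cervical carcinoma at large.

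Oncofetal genes are active in the embryo, fall silent in most adult tissues and are often active again in tumours. LIN28A and LIN28B are RNA-binding proteins that block maturation of the let-7 microRNAs. LIN28A holds the let-7 precursor and recruits the uridyltransferases TUT4 and TUT7, and the exonuclease DIS3L2 degrades the tailed RNA, whereas LIN28B has also been described as acting on primary let-7 in the nucleus. Mature let-7 in turn represses the mRNAs of LIN28B, HMGA2 and IGF2BP1 among others. SALL4 is a zinc finger transcription factor of early embryonic cells, KLF4 is a reprogramming factor that also acts in epithelial differentiation, PROM1 (CD133) is a membrane glycoprotein used as a stem cell marker, IGF2BP1 to IGF2BP3 bind and stabilize mRNAs, and HMGA1 and HMGA2 are small chromatin proteins that bind the minor groove of AT-rich DNA.

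The RNA that LIN28 acts on is shown first, because the results on both LIN28 genes are set beside the let-7 precursor genes. MIR202, on the let-7 list used below, has the 5p seed UCCUAUG and is left out of the sequences. The other 9 mature let-7 family microRNAs of the 5p arm in the RefSeq table (GRCh38.p14) share 1 seed. The seed, bases 2 to 8, is in capitals and is the part that pairs with a target mRNA.
hsa-let-7a-5p: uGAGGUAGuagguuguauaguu
hsa-let-7b-5p: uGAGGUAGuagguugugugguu
hsa-let-7c-5p: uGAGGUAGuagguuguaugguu
hsa-let-7d-5p: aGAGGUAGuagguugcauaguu
hsa-let-7e-5p: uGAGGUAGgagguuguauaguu
hsa-let-7f-5p: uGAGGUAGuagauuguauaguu
hsa-let-7g-5p: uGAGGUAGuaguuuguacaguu
hsa-let-7i-5p: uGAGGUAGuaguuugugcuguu
hsa-miR-98-5p: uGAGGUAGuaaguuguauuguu

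The zinc knuckles of LIN28 proteins contact a GGAG motif beside the loop of the precursor. GGAG, searched on the given strand only, stands after the 5p arm in 9 of the 12 let-7 family hairpins, and 43.4% of all 1560 hairpins in the table hold it anywhere. A match is a description of the letters and no measurement of binding. Hairpins are shown for MIRLET7D and MIRLET7I, the highest of the genes with a probe set of their own, for MIRLET7G, and for MIR98, in which no GGAG was found. Capitals mark the first GGAG after the 5p arm.
MIRLET7D, chr9:94178834-94178920, plus strand: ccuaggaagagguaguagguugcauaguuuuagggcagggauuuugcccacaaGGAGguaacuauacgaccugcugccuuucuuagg
MIRLET7I, chr12:62603686-62603769, plus strand: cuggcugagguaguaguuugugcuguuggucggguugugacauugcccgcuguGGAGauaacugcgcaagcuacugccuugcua
MIRLET7G, chr3:52268278-52268361, minus strand: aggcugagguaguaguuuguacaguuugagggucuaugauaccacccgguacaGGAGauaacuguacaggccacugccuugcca
MIR98, chrX:53556223-53556341, minus strand: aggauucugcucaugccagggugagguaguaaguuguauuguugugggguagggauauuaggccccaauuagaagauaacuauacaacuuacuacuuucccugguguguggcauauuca

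SALL4, IGF2BP1, IGF2BP3, HMGA1, IGF2BP2 and LIN28B had transcript levels above a background bound in all 3 cultures, whereas KLF4, LIN28A and PROM1 lay below it. The arrays come with no detection call. A bound was therefore taken from 455 genes for odorant and taste receptors, beta-defensins and hair keratin-associated proteins, which are silent in most tissues, as the 95th percentile of their mean levels, 6.43 log2. Of the 9 regulators measured, 6 lay above it, on the mean and on each array taken alone, and over all genes 56.3% lay above it (58.9% of protein-coding genes). The highest gene of the silent families was at 8.84 log2, and the 5 regulators other than LIN28B that passed the bound also lay above this gene. The median level of the regulators was 9.08 log2, against 6.91 for all genes and 4.05 for the silent families. Of the regulators 2, SALL4 and IGF2BP1, were in the highest decile, which by construction holds 10% of all genes. The same 6 of 9 lay above every bound tried, but the distance depends on the bound: with olfactory receptor genes alone it was 5.38 and KLF4, at 5.31 ± 0.17 (SD, n = 3), lay within its spread of it. The lowest regulator above the bound was LIN28B and the highest below it was KLF4, and 7291 genes, 39.6% of all, had a level between these. The genes were picked by name and not at random, so these counts are a description of the list. The share of 56.3% of all genes holds for the bound of 6.43 only. Just above the 99th percentile of the silent families (7.88), DIS3L2 was higher than 62.9% of all genes. Just below the bound from olfactory receptor genes alone, the let-7 precursor gene MIRLET7E was higher than 27.9%. Counts given below for these 2 bounds are to be read beside those shares and not beside 56.3%.

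**Figure D1:**
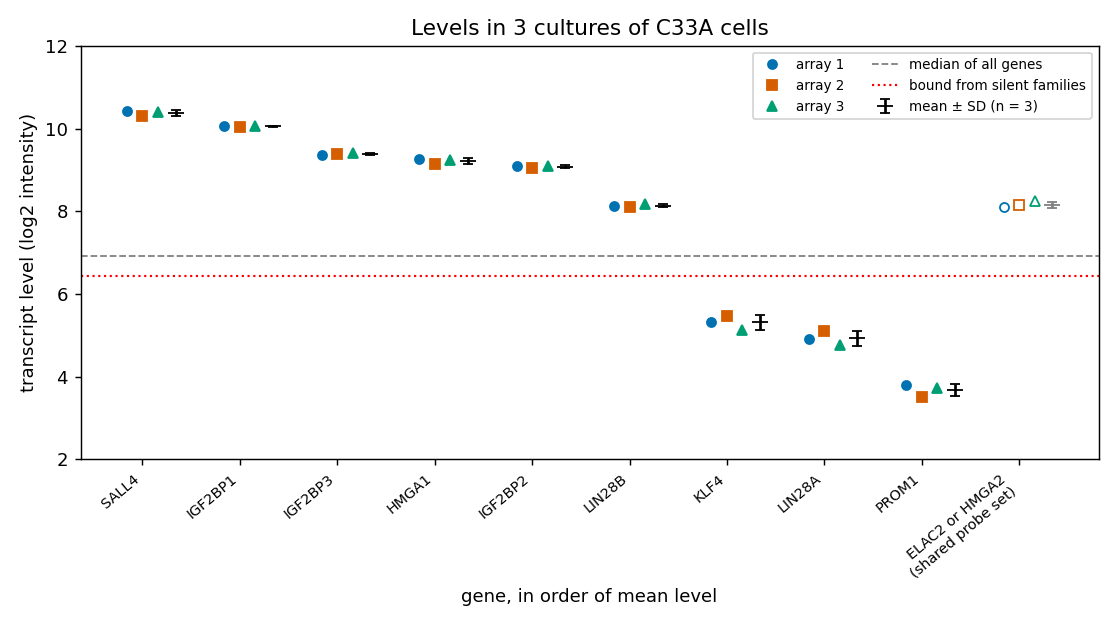
Transcript level (y axis, log2 intensity) of each regulator (x axis, in order of mean level) on the 3 arrays, with the mean and SD (n = 3) beside the points. Open symbols at the right stand for the probe set shared by ELAC2 and HMGA2, the dashed line is the median of all genes (6.91) and the dotted line the bound from silent families (6.43), which separates SALL4 to LIN28B from KLF4, LIN28A and PROM1.

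LIN28B was the LIN28 gene with a level above the bound. The cultures gave 8.12, 8.10 and 8.17 log2 in the order of their numbers, with a mean of 8.13 ± 0.04 (SD, n = 3 cultures), higher than 66.5% of all genes. LIN28A gave 4.90, 5.10 and 4.75 log2, with a mean of 4.92 ± 0.18 (SD, n = 3), higher than 21.8% of all genes. All 3 arrays of LIN28B lay above the bound and all 3 of LIN28A below it. LIN28A was not above background and is measured by other probes, so no fold between the LIN28 transcripts is given. The 2 LIN28A probe sets, which list the same accessions, differed from each other. The first was steady at 5.16, 5.22 and 5.20 log2, and the second gave 4.65, 4.99 and 4.30. With 3 arrays an exact two-sided sign-flip test within arrays cannot give a p below 0.25, so no p is given. Probes also bind with a strength set by their own bases, which repeats on every array and is no part of the SD, so levels of different genes are given side by side.

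The let-7 precursor genes with a probe set of their own had low signal. Of 13 genes on the let-7 list, 10 have a probe set of their own, with a median level of 4.95 log2, and 2 of the 10 lay above the bound, against 12.7% of 173 microRNA precursor genes measured. MIRLET7D, at 6.50, 6.50 and 6.41 log2 (mean 6.47 ± 0.05, SD, n = 3), and MIRLET7I, at 6.58, 6.40 and 6.40 (mean 6.46 ± 0.10, SD, n = 3), lay just over the bound of 6.43. Without array 1, 1 of them did. Neither can be told apart from the bound at this precision. MIRLET7F1 was at 5.68 ± 0.24 log2 (SD, n = 3), MIRLET7E at 5.37 ± 0.12 (SD, n = 3), MIRLET7C at 4.98 ± 0.28 (SD, n = 3) and MIRLET7G at 4.92 ± 0.36 (SD, n = 3). MIRLET7A1, MIRLET7F2, MIRLET7A2 and MIR98 were lower still, between 4.14 and 4.54. MIRLET7A3 and MIRLET7B lie on probe sets shared with their host gene MIRLET7BHG. The shared set of MIRLET7A3 gave 5.96 ± 0.15 log2 (SD, n = 3). That of MIRLET7B gave 6.93 ± 0.02 (SD, n = 3), above the bound and higher than the 10 genes measured alone. MIRLET7BHG on its own was at 7.58 ± 0.07 (SD, n = 3), so the part of the precursors in the shared signal is not separately measured. MIR202 was also not measured on a probe set of its own. The probe sets are directed to precursor genes, and the labelling starts from total RNA, so these values are not levels of mature let-7.

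A list of genes of let-7 processing and silencing and of LIN28 partners was above the bound in 23 of 23 cases, where 56.3% of all genes were. With the 99th percentile of the silent families as the bound 19 were above it, and the median was 8.55 log2. The uridyltransferase TUT4 was at 9.03, 9.15 and 9.06 log2 (mean 9.08 ± 0.06, SD, n = 3), and TUT7 at 8.12, 8.27 and 8.07 (mean 8.16 ± 0.10, SD, n = 3). DIS3L2, the exonuclease that acts on uridylated precursors, was at 7.89 ± 0.02 (SD, n = 3), and DICER1, which cuts the precursor, at 8.48 ± 0.11 (SD, n = 3). Of the list the highest were the GTPase RAN (11.31 ± 0.05, SD, n = 3), the RNA-binding protein KHSRP (10.61 ± 0.07, SD, n = 3) and the precursor exporter XPO5 (10.23 ± 0.03, SD, n = 3). The lowest were the uridyltransferase TUT1 (7.70 ± 0.08, SD, n = 3), the silencing factor TNRC6C (7.29 ± 0.04, SD, n = 3) and HNRNPA1 (7.05 ± 0.08, SD, n = 3), an RNA-binding protein of let-7 processing.

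**Figure D2:**
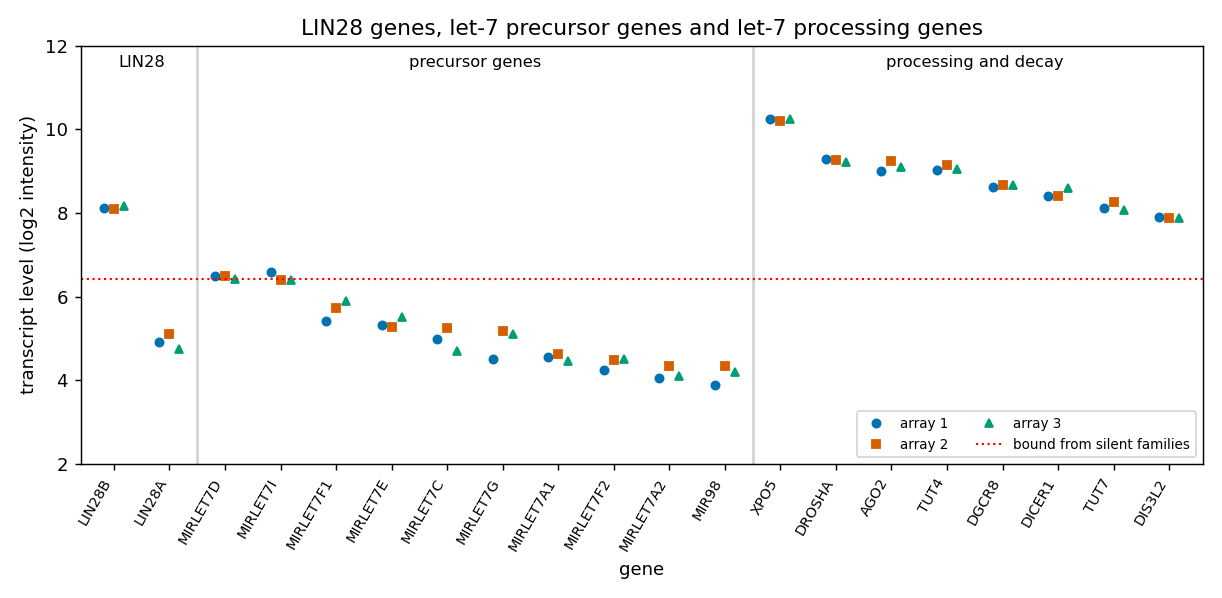
Transcript level (y axis, log2 intensity, 1 symbol per array) of the LIN28 genes, of the 10 let-7 family precursor genes measured and of 8 processing and decay genes (x axis), with the bound from silent families dotted. LIN28B lies at 8.13 and LIN28A at 4.92, the precursor genes at or below the bound of 6.43 within their spread, and the processing genes between 7.89 (DIS3L2) and 10.23 (XPO5).

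Of 28 measured genes described as let-7 targets, 22 were above the bound, where 56.3% of all genes were, with a median of 7.87 log2. With the 99th percentile of the silent families as the bound (7.88) 14 of the 28 were above it. The highest were the receptor gene TGFBR1 at 10.10 ± 0.06 (SD, n = 3), the mitotic kinase AURKB at 9.77 ± 0.03 (SD, n = 3) and the transcription factor MYC, at 9.75, 9.61 and 9.82 on the arrays (mean 9.73 ± 0.11, SD, n = 3). TRIM71, a ubiquitin ligase of embryonic cells and a classical let-7 target, was at 7.37 ± 0.07 (SD, n = 3). The lowest were ACVR1C at 5.46 ± 0.03 (SD, n = 3), MYCN at 5.22 ± 0.28 (SD, n = 3) and the kinase CDK6 at 4.20 ± 0.05 (SD, n = 3). The list thus spans decile 10 to decile 2.

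SALL4 had the highest level of the 9 regulators. Its values were 10.43, 10.31 and 10.39 log2, with a mean of 10.38 ± 0.06 (SD, n = 3), higher than 94.4% of all genes. Of the other SALL genes, zinc finger factors of the same family, SALL2 was at 7.83 ± 0.14 (SD, n = 3), SALL3 at 6.85 ± 0.11 (SD, n = 3) and SALL1, below the bound, at 6.04 ± 0.03 (SD, n = 3). SALL4 recruits the deacetylase and remodelling complex NuRD. All 15 NuRD genes measured were above the bound, where 56.3% of all genes were, and 14 with the 99th percentile as the bound. The median of the NuRD genes was 9.87 log2. They reached from the histone chaperone RBBP4 (11.83 ± 0.03, SD, n = 3), RBBP7 (11.68 ± 0.01, SD, n = 3) and CDK2AP1 (11.61 ± 0.17, SD, n = 3) down to GATAD2B (8.76 ± 0.05, SD, n = 3), the remodeller CHD3 (8.39 ± 0.11, SD, n = 3) and CHD5 (6.67 ± 0.08, SD, n = 3), a remodeller known mainly from neural tissue.

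KLF4 was among the 3 regulators of low level. It gave 5.32, 5.47 and 5.13 log2, with a mean of 5.31 ± 0.17 (SD, n = 3), higher than 26.8% of all genes, and its mean minus the bound was -1.12 log2. KLF2 and KLF5, relatives that can stand in for KLF4 in mouse embryonic stem cells, were above the bound, at 9.12 ± 0.07 and 8.33 ± 0.06 log2 (SD, n = 3). Of the 19 other SALL and KLF genes, 13 were above the bound, near the share of all genes (56.3%), and 7 with the 99th percentile as the bound. The highest of them were KLF10 at 9.72 ± 0.05 (SD, n = 3), KLF16 at 9.32 ± 0.03 (SD, n = 3) and KLF2, and the lowest KLF17 at 5.02 ± 0.20 (SD, n = 3), KLF8 at 4.45 ± 0.25 (SD, n = 3) and KLF12 at 3.999 ± 0.23 (SD, n = 3).

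PROM1 had the lowest level of the regulators. Its values were 3.80, 3.52 and 3.73 log2, with a mean of 3.68 ± 0.15 (SD, n = 3), higher than 7.66% of all genes, below the median of the silent families (4.05) and in the lowest decile. PROM2, its relative, was at 5.77 ± 0.31 (SD, n = 3), also below the bound. A level in this range is a rank within the signal and no measured absence of transcript.

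The 3 IGF2BP genes were all above the bound and in the 2 highest deciles. IGF2BP1 gave 10.05, 10.04 and 10.06 log2 (mean 10.05 ± 0.0082, SD, n = 3), higher than 91.9% of all genes. IGF2BP3 gave 9.35, 9.38 and 9.41 (mean 9.38 ± 0.03, SD, n = 3), higher than 84.7%, and IGF2BP2 gave 9.11, 9.04 and 9.10 (mean 9.08 ± 0.04, SD, n = 3), higher than 80.8%. Each has 1 probe set, so their order is one of signals and not shown to be one of transcripts. IGF2BP1 and IGF2BP3 are the oncofetal members of this family, and IGF2BP2 is active in many adult tissues. The antisense transcript IGF2BP2-AS1 was at 3.34 ± 0.08 (SD, n = 3), in the lowest decile.

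IGF2BP proteins bind mRNAs of growth and of the cytoskeleton. On a list that pools client mRNAs with partner proteins, 19 of 26 genes were above the bound, where 56.3% of all genes were. With the 99th percentile as the bound 19 were also above it, and the median was 9.80 log2. Among them ACTB, the actin mRNA that chicken IGF2BP1 localizes, was at 13.46 on all 3 arrays, the cold shock protein YBX1 at 12.61 ± 0.02 (SD, n = 3) and the poly(A)-binding protein PABPC1 at 12.44 ± 0.03 (SD, n = 3), while MYC has been given above. The lowest were CD44 at 4.90 ± 0.04 (SD, n = 3), the drug transporter ABCB1 at 4.33 ± 0.04 (SD, n = 3) and the neuronal ELAVL4 at 3.42 ± 0.10 (SD, n = 3). The client mRNAs thus lay on both sides of the bound. Beside CD44 and ABCB1, GLI1 (6.03 ± 0.02) and MAPK4 (5.87 ± 0.01) were below it, and BTRC was above it at 8.97 ± 0.12 (SD, n = 3). IGF2, after which the family is named, lies on a probe set that also carries INS and INS-IGF2, and its level is not separately measured. Of 13 other genes of the IGF axis, 9 were above the bound, where 56.3% of all genes were, and 5 with the 99th percentile as the bound. The adaptor IRS1 was at 10.01 ± 0.08 (SD, n = 3), the clearance receptor IGF2R at 9.36 ± 0.05 (SD, n = 3), IGFBP2 at 8.94 ± 0.04 (SD, n = 3) and the signalling receptor IGF1R at 7.57 ± 0.06 (SD, n = 3). IGFBP5 was at 4.44 ± 0.07 (SD, n = 3), IRS4 at 4.30 ± 0.12 (SD, n = 3) and IGF1 at 3.83 ± 0.08 (SD, n = 3).

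HMGA1 was in decile 9, and its level depended on the probe set. The mean of its 3 probe sets was 9.27, 9.13 and 9.23 log2 on the arrays (mean 9.21 ± 0.07, SD, n = 3), higher than 82.6% of all genes. The probe set with 5 RefSeq accessions gave 8.73 ± 0.09 (SD, n = 3) and the other 2, with 1 accession each, 9.42 ± 0.07 and 9.48 ± 0.07 (SD, n = 3). The distance between probe sets of this gene was thus larger than the spread between cultures. HMGA1 has 8 pseudogenes named after it in the RefSeq table, and signal from such copies cannot be told apart here. The same holds for SALL4 (7), LIN28A and IGF2BP2 (3 each), IGF2BP3 (2) and KLF4 (1).

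HMGA2 could not be measured by the rule, since its probe set also carries the symbol ELAC2, the tRNA-processing nuclease. That probe set gave 8.10, 8.14 and 8.24 log2 (mean 8.16 ± 0.08, SD, n = 3), near the level of LIN28B. All 3 of its accessions found in the RefSeq table belong to HMGA2 and none to ELAC2, whose own probe set was at 10.53 ± 0.03 (SD, n = 3). The accessions thus point to HMGA2, but the annotation carries both symbols, so the value is given for the shared probe set and not as a level of HMGA2. HMGA2-AS1, an antisense transcript of the locus, was at 4.86 ± 0.06 (SD, n = 3). When probe sets with several symbols were also used, 7 of 10 regulators were above the bound, which then was 6.87, and their median was 8.37.

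Of 11 other HMG genes, 9 were above the bound, where 56.3% of all genes were, with a median of 9.22 log2. The nucleosome-binding HMGN2 was at 11.98 ± 0.05 (SD, n = 3), HMGB2, a DNA-bending protein of dividing cells, at 9.96 ± 0.06 (SD, n = 3) and HMG20B at 9.91 ± 0.02 (SD, n = 3). HMGN3 was at 8.82 ± 0.16 (SD, n = 3), and HMGB4, known from testis, at 3.98 ± 0.21 (SD, n = 3) and HMGN5 at 3.57 ± 0.35 (SD, n = 3) lay below the bound.

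By mean signal the regulators above the bound were ordered SALL4, IGF2BP1, IGF2BP3, HMGA1, IGF2BP2 and LIN28B. KLF4, LIN28A and PROM1 lay below the bound, and their order by mean signal is not read as one of transcripts. The ranges of the 3 arrays did not overlap between neighbours, as for HMGA1, with 9.13 on its lowest array, and IGF2BP2, with 9.11 on its highest. These ranges hold the spread between arrays and not that between probe sets, which for HMGA1 alone reached from 8.73 to 9.48, so neighbours from IGF2BP3 to IGF2BP2 are not shown to differ in transcript level. With the highest probe set of each gene, HMGA1 stood above IGF2BP3.

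The spread between cultures was smaller above the bound than below it. The 6 regulators above the bound had SDs of 0.0082 to 0.07 log2 and the 3 below it 0.15 to 0.18. Compared with genes of the same decile, 5 of the 9 had an SD above the median of their decile, where 50% of all genes do so by construction. IGF2BP1 was among the steadiest genes of decile 10, with an SD larger than that of 3.26% of its 1840 genes. LIN28A, at 71.8% of decile 3, was the regulator that stood highest within its decile, closely followed by KLF4 at 70.8%. The spread of LIN28A came mainly from 1 of its 2 probe sets, with an SD of 0.34 against 0.03 for the other. The SD of 3 arrays is itself imprecise.

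**Figure D3:**
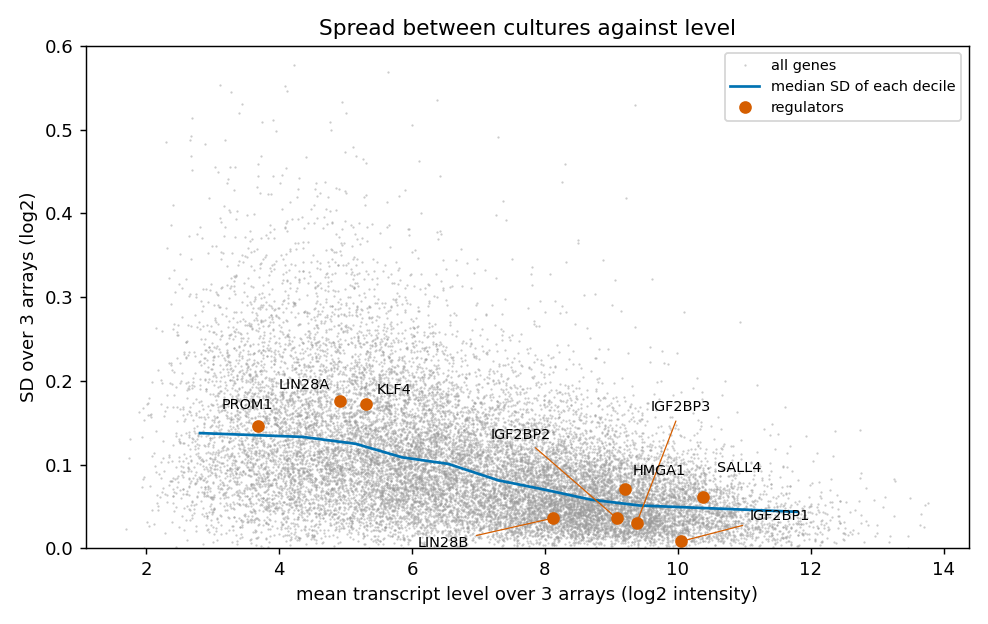
SD over the 3 arrays (y axis, log2) against mean transcript level (x axis, log2 intensity) for all genes (grey points; 12 genes with an SD over 0.6 lie outside the axis), the median SD of each decile (line) and the 9 regulators measured. The 6 regulators above the bound have SDs up to 0.07, and KLF4, LIN28A and PROM1 have SDs of 0.15 to 0.18 near the line for genes of low level.

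Of 30 genes of the wider pluripotency network 26 were measured, and 9 lay above the bound, where 56.3% of all genes did. The count was 3 with the 99th percentile as the bound and 15 with olfactory receptor genes alone. These bounds also change the share of all genes, most of which lay above the looser of them. The median of the 26 was 5.71 log2, against 6.91 for all genes. SOX2, a core pluripotency factor that is also active in neural and epithelial progenitors, was the highest, at 10.93, 10.98 and 10.94 log2 (mean 10.95 ± 0.02, SD, n = 3). KLF2 and KLF5 followed. The lowest were DPPA2 at 3.12 ± 0.09 (SD, n = 3), L1TD1, an RNA-binding partner of LIN28, at 3.02 ± 0.24 (SD, n = 3) and the Nodal co-receptor CRIPTO (TDGF1) at 2.36 ± 0.20 (SD, n = 3). POU5F1 and NANOG lie only on probe sets shared with their pseudogenes. These gave 5.68 to 5.77 for POU5F1 and its copies and 4.70 to 5.24 for NANOG and NANOGP1, below the bound of 6.43, while those of POU5F1 lay above the bound of 5.38 from olfactory receptor genes alone.

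**Figure D4:**
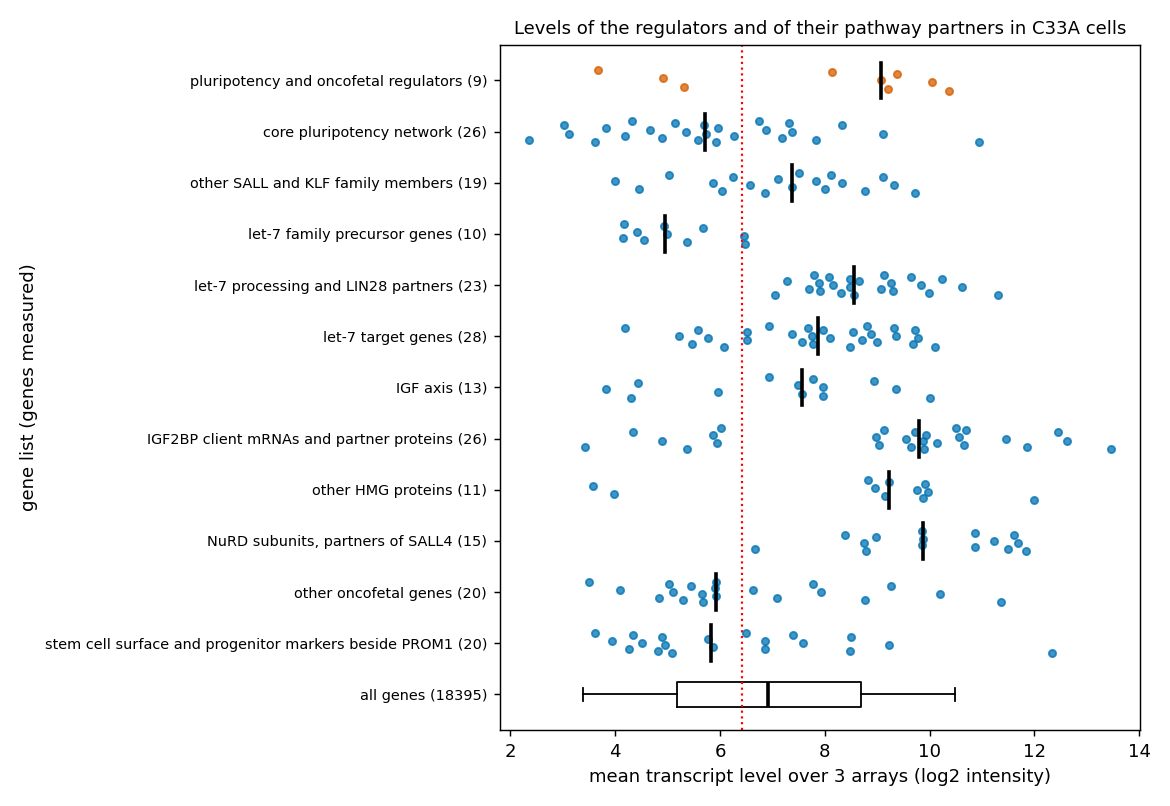
Mean transcript level over the 3 arrays (x axis, log2 intensity) of the 9 regulators measured and of 11 lists of pathway partners (y axis, number of genes measured in brackets), with 1 point per gene and the list's median as a bar. The box at the bottom gives the quartiles and the 5th and 95th percentile of all genes, the dotted line the bound of 6.43, and the regulators fall into 6 genes at 8.13 or more and 3 at 5.31 or less.

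Promoter windows of 300 bases, from 250 before to 50 after a RefSeq transcript start, were in the table for 6 of the regulators (LIN28B, KLF4, PROM1, IGF2BP2, IGF2BP3 and HMGA1), 12 windows in all. LIN28B and KLF4 are printed because they stand on either side of the bound. Capitals mark CG, the dinucleotide counted.
LIN28B, GRCh38.p14, chr6:104940715-104941014, plus strand: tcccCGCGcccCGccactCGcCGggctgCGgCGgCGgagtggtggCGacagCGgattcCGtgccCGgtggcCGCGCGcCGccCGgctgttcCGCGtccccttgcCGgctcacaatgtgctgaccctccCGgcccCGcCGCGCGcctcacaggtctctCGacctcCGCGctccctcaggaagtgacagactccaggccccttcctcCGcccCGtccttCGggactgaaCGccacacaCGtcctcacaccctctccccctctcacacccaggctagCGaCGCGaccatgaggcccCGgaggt
KLF4, GRCh38.p14, chr9:107489720-107490019, minus strand: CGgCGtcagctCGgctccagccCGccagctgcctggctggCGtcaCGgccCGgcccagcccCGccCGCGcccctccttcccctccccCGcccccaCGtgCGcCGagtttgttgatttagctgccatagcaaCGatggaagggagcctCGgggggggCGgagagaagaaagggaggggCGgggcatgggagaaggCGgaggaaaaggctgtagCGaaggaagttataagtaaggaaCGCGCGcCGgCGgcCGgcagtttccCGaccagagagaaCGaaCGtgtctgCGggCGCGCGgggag
The LIN28B window holds 37 CG, more than 88.7% of the 35116 windows of the table, and the KLF4 window 33, more than 82.8%, where the median window holds 14. CG-rich windows thus occurred on both sides of the bound. The best window of HMGA1 held 33, that of IGF2BP2 38, that of PROM1 32 and that of IGF2BP3 17. Other LIN28B, IGF2BP2, HMGA1 and PROM1 windows held as few as 3 to 8, and which start C33A cells use was not measured.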

How the data were processed

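Levels were taken from 3 C33A arrays, 1 per culture. The authors normalized the arrays with RMA, which corrects background, equalizes the arrays and summarizes probes, processed them further in oneChannelGUI and deposited log2 intensities per probe set. Versions of these tools: not given in the sources used here. Pearson's r between arrays was 0.993 to 0.994 over 33297 probe sets, and precision is limited by having 3 arrays. Of the probe sets 19460 carry 1 symbol in the platform annotation, 1754 several and 12083 are not listed there. Symbols were updated through the RefSeq table of GRCh38.p14, used for names and sequences only. Single-symbol probe sets were averaged per gene (18395 genes). The regulators and gene lists were chosen with earlier results of these data known. Named genes are all regulators and the 3 highest and 3 lowest of each pathway list. To these come the highest and lowest of each marker list and core pathway genes fixed by name. Outside this rule, SALL1, SALL2, SALL3, PROM2, ELAC2, MIRLET7BHG, IGF2BP2-AS1 and HMGA2-AS1 are named as relatives or neighbours of listed genes. BTRC, GLI1, MAPK4 and CDH1 were named after their values were seen. No test was run, since there is 1 group. Alternatives changed the arrays, probe set summary, normalization, bound and genes ranked. The functions were tested on simulated arrays. Computations used Python 3.11.15, NumPy 2.4.6, pandas 2.3.3 and matplotlib 3.10.9.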

Additional observations from a re-analysis of the deposited data

How the results depend on the processing

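Of 357 recomputed values, 304 stayed within the spread between cultures or, for counts, near the main count, and 53 moved further. This tally is no measure of robustness. Leaving out an array cannot move a mean level or difference by as much as the SD of the same arrays, so those values stayed by construction. For counts the rule was loose, and a change from 129 to 93 was called near. Sign was checked only for the differences between members of one family, and none of these changed it. The count of 6 regulators above the bound was the same without each array, with the 90th and 99th percentile of the silent families (bounds 5.87 and 7.88) and with olfactory receptor genes alone (5.38). Other probe set summaries can move only LIN28A and HMGA1, since the other regulators measured have 1 probe set. Centring the arrays on their medians leaves every mean level as it was. The count was also 6 with these settings and after a further quantile normalization, which tests it little. It became 7 when shared probe sets were included, which adds HMGA2 and also takes the median level of the regulators to 8.37 and HMGA1 to 8.58. The shift of HMGA1 comes from a probe set shared with ERFE, at 6.67 ± 0.09 (SD, n = 3). The 1 accession of that set found in the RefSeq table is not one of HMGA1. The signal of LIN28B minus that of LIN28A, which lies below the bound and is read by other probes, was 3.21, and 2.93 with the highest probe set, where HMGA1 was at 9.48. This difference of signals is given to compare the settings and is not a fold between the transcripts. Ranked among all probe sets, KLF4 stood above 37.0% and LIN28A above 31.5%. Of the 200 measured pathway genes, 129 were above the bound, where 56.3% of all genes were. With the other bounds 93 to 154 were, and the share of all genes changes with the bound too. Within lists of few genes above it the counts moved further, as for the let-7 precursor genes, with 0 above the bound at the 99th percentile. No paired analysis was possible because there is only 1 group. The 3 cultures of a single line and the 1 to 3 probe sets per regulator limit every level.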

Other observations

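Of 20 other oncofetal genes measured, 8 were above the bound, where 56.3% of all genes were, with a median of 5.92 log2. The count was 5 with the 99th percentile of the silent families as the bound and 14 with olfactory receptor genes alone, bounds at which the share of all genes also differs from 56.3%. PEG10, an imprinted gene derived from a retrotransposon, was at 11.33, 11.40 and 11.35 log2 (mean 11.36 ± 0.04, SD, n = 3), the proliferation factor FOXM1 at 10.21 ± 0.11 (SD, n = 3) and the growth factor MDK at 9.26 ± 0.23 (SD, n = 3). The clinical tumour markers CEACAM5 and AFP were at 4.09 ± 0.38 and 3.50 ± 0.05 (SD, n = 3), and the junction protein CLDN6 at 4.83 ± 0.13 (SD, n = 3). Among 20 stem and progenitor cell markers beside PROM1, 9 were above the bound, where 56.3% of all genes were, and 4 with the 99th percentile. ALDH1A1, a retinaldehyde dehydrogenase used as such a marker, was at 12.33 ± 0.11 (SD, n = 3), far above PROM1. The integrin ITGA6 was at 9.23 ± 0.13 and the RNA-binding protein MSI2 at 8.50 ± 0.04 (SD, n = 3), while KIT (4.27 ± 0.23, SD, n = 3), LGR5 (3.93 ± 0.13, SD, n = 3) and the transporter ABCG2 (3.61 ± 0.23, SD, n = 3) were below the bound.

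Marker counts depended on the bound. Most of all genes also passed the bound from olfactory receptor genes alone (5.38), since MIRLET7E, at 5.37, was higher than 27.9% of them. The main bound of 6.43 was passed by 56.3% of all genes. Of 13 epithelial marker genes 3 were above it (0 with the 99th percentile, 7 with olfactory receptor genes alone), from KRT18 at 7.75 ± 0.11 to EPCAM at 4.52 ± 0.29 (SD, n = 3), and CDH1, named after its value was seen, was at 4.95 ± 0.09 (SD, n = 3). Of 15 fibroblast markers 4 were above it, and 10 with olfactory receptor genes alone (COL3A1 at 11.36 ± 0.06, LUM at 2.52 ± 0.14, SD, n = 3), of 14 endothelial markers 2, and 5 with that bound (SOX17 at 7.11 ± 0.28, EMCN at 3.26 ± 0.09, SD, n = 3), of 18 leukocyte markers 3, and 8 with it (PTPRC at 8.82 ± 0.11, MS4A1 at 3.51 ± 0.06, SD, n = 3), of 13 neural markers 2, and 8 with it (INSM1 at 7.53 ± 0.10, ELAVL4 at 3.42) and of 11 pluripotent or germ cell markers 3 (DND1 at 8.32 ± 0.34, CRIPTO at 2.36, SD, n = 3). Whether any other cell type contributed to the levels of the regulators was not tested.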
